A study of Arabidopsis thaliana with 28 samples.

Results

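Transcript levels in young Arabidopsis leaves after 96 h of treatment were set against those after 24 h, a difference of whole days. The comparison rests on the arrays that the labels put in developing leaves at 96 h (4 arrays, 4 replicates) and at 24 h (5 arrays, 4 replicates, since 2 arrays carry the title of replicate 1 and were averaged), which is 9 of the 28 arrays of the series. Every array is of wild-type Arabidopsis thaliana, accession Col-0, and the title of the series gives low light at ambient CO2 as the treatment of all of them. The labels leave unsaid whether the sampled leaves, or other leaves of the plant alone, were kept in low light. The plants grew on Humax compost in a growth room with 10 h of light, at 20 °C and 50% humidity. Both groups hold developing leaves at insertions 19 to 21, whose treatment notes give 96 h AS and 24 h AS, with AS not explained in the sources used here. Developing leaves at 48 h (4 replicates) and mature leaves at 24 h (2 replicates) are drawn in for their levels. No array of untreated plants was used, so the length of the treatment and the age of the leaf advance together and cannot be told apart. Nothing in the labels says that replicates came from separate plants, so a p-value here measures the spread between samples, which may be technical.

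A dicot leaf begins as a primordium of dividing cells. Division then ends, from the tip of the blade towards its base, and cells go on to enlarge, often while copying their DNA without dividing, as walls are loosened and rebuilt. Stomata arise from a separate lineage of dividing epidermal cells. As the leaf ages it turns from importing sugar to exporting it, and genes of defence and nutrient recycling are typically more active in older leaves.

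Values are MAS5 signals, a brightness per probe set in arbitrary units on a linear scale, and a probe set is a group of probes on the array for 1 transcript or a few alike. Replicate values are given in the order 1 to 4 and means with the SD, with n = 4 in each group. A log2 change is that of the signal plus 10, 96 h minus 24 h, with its SE from limma. A fold is of the signal plus 10 as well, and so is usually nearer to 1 than the ratio of the printed means, and adjusted p-values are limma's, over all 22746 probe sets, with a threshold of 0.05. No fold is given where a group mean lies below 27.8, the 40th percentile of the mean signals, since the size of a change there depends on the added 10.

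The arrays of both groups were alike in their medians, which ran from 43.5 to 45.6 at 96 h and from 42 to 46.5 at 24 h. Replicate 1 stood slightly apart in both. The 24 h arrays of replicate 1 correlated with the other 24 h arrays at r = 0.966 to 0.977, where replicates 2 to 4 correlated with each other at 0.984 to 0.985, and at 96 h the same ranges were 0.979 to 0.982 and 0.983 to 0.986. The ratio of 3' to 5' probe sets, a sign of RNA integrity, did not separate the groups for actin (log2 ratio 1.8 ± 0.52 for the 96 h group and 1.87 ± 0.18 for the 24 h group, with p = 0.83 in an exact two-sided permutation test) or for 3 other pairs of actin and GAPDH probe sets (adjusted p = 0.83 for all 4, with 0.0286 the smallest p that 4 against 4 allows). Markers were checked against the leaf label. Mesophyll markers (4 of 6 with a named probe set: LHCB4.1, LHCB4.2, PSAN and RCA) had summed signals of 11200 to 13700 at 96 h and 11800 to 16800 at 24 h. CLV3, the only meristem marker of 5 with a named probe set, lay near zero at 2.26 to 3.92 at 96 h and 1.57 to 3.57 at 24 h. The guard cell marker FMA (1 of 4) stood at 43.9 to 60.7 at 96 h and 38.8 to 65.4 at 24 h, and PYK10, which marks roots (1 of 2), at 24.5 to 56.5 at 96 h and 17.8 to 35.2 at 24 h. None of these passed the test, and the markers of flower, epidermis, trichome and phloem had no named probe set here.

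Of the 22746 probe sets, 1119 passed the threshold (4.92%), with 640 higher at 96 h (2.81%) and 479 lower (2.11%). The unadjusted p was under 0.05 for 3832 of the 22746. Counts of list members below are to be read beside these values. Among the probe sets called, the median log2 change of the rises was 0.66 and of the falls -0.51, against a median of 0.01 over all probe sets, and 150 rises (0.659%) and 21 falls (0.0923%) reached 2-fold. These counts rest on the added value and on dim probe sets. They were 215 rises and 55 falls with 1 added, 52 and 7 with 50 added, and 49 and 15 when only the probe sets above the 60th percentile of mean signal were tested. That filter also turned the balance of all calls, to 477 higher and 535 lower at 96 h. Replicate values of the groups did not overlap for 594 of the rises and 422 of the falls, and over all probe sets 5.68% lay wholly higher and 5.03% wholly lower at 96 h. Leaving out 24 h replicate 3 reduced the calls to 700. The falls numbered 316 when 96 h replicate 1 was dropped and 277 when 96 h replicate 3 was. Dropping 24 h replicate 3 left 248 falls, and dropping 24 h replicate 4 left 307. Without replicate 1 of any group, a setting chosen after seeing the data, there were 1391 calls.

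**Figure D1:**
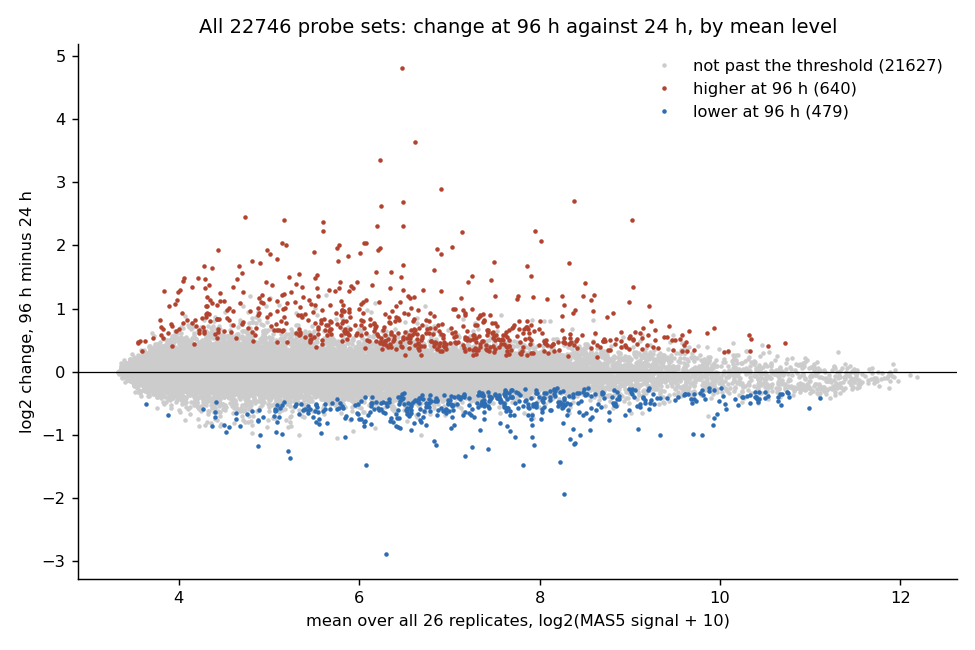
Each point is 1 of 22746 probe sets. The x axis is the mean of log2(MAS5 signal + 10) over the 26 replicates of the series and the y axis the log2 change, 96 h minus 24 h. Red points are the 640 probe sets called higher at 96 h and blue points the 479 called lower. The rises reach 4.8 on the log2 scale, while 1 fall, at -2.89, lies far below the others.

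Of the called probe sets, 554 are assigned to a single gene (325 rises and 229 falls), and 87 of the called genes have a symbol beside their locus code (49 higher, 38 lower). The steepest change was in a probe set with no gene in the table used here, 262832_s_at, with 617 ± 200 at 96 h and 15 ± 17.2 at 24 h (log2 change 4.8 ± 0.64, adjusted p = 5.3e-05). Another without a gene, 251625_at, had 448 ± 137 at 96 h and 27.3 ± 15.2 at 24 h (3.64 ± 0.41, adjusted p = 7.9e-06). Both were brighter still in mature leaves, at 1350 and 1400. The 24 h mean of each lies below 27.8, so the size of these changes depends on the added value.

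The 20 largest rises among probe sets with a single gene, ranked by the naming rule in the methods, ran from 1.33 to 2.69 on the log2 scale. That rule keeps only genes whose replicate values do not overlap between the groups, so their lack of overlap was fixed in advance. RING1, a RING-finger ubiquitin ligase, had the largest rise among those with a symbol. Its signal was 354, 391, 236 and 364 at 96 h, against 93.9, 53.8, 48.1 and 67.2 at 24 h, a 4.61-fold difference (log2 change 2.21 ± 0.31, adjusted p = 9.4e-05). Every 96 h value lay far above every 24 h value. At 48 h RING1 stood between the groups at 162 ± 45.5, and in mature leaves it reached 1360 ± 208. CHI, a putative chitinase, had 155, 165, 113 and 175 at 96 h, against 36.1, 33.6, 27.2 and 28.1 at 24 h (1.96 ± 0.46, adjusted p = 0.012). Its call ended with an added value of 1 in place of 10 (adjusted p = 0.059). SAL2, a phosphatase paralogous to SAL1, had 64.6, 66, 44.5 and 65.4 at 96 h, against 12.4, 12.5, 7.15 and 12.3, near background, at 24 h. Its log2 change was 1.73 ± 0.21 (adjusted p = 2e-05). GLR2.7, a glutamate receptor-like channel, likewise had 50.8, 69, 45 and 51.1 at 96 h, against 14.3, 19.8, 9.58 and 5.23 at 24 h (1.56 ± 0.16, adjusted p = 2.9e-06). A second gene of that family, GLR1.4, which is not among the 20, had 81.4 ± 5.05 at 96 h and 42 ± 6.28 at 24 h (1.77-fold, adjusted p = 0.001). Most of the 20 have only a locus code in the annotation, and no role is given to them here. AT3G60420, AT1G76960, AT1G13470, AT5G52760, AT3G28540 and AT1G10340 rose by 2.01 to 2.69, each with a 24 h mean below 27.8, so that their log2 changes depend on the added value. The same holds for SAL2, whose log2 change was 0.84 to 2.37 over added values of 50 and 1, and for GLR2.7, with 0.74 to 2.18. AT1G73600 was the brightest of the 20, with 653, 567, 637 and 551 at 96 h, against 187, 211, 149 and 188 at 24 h (3.18-fold, adjusted p = 2.9e-06). Of the others, AT3G47480 (1.33 ± 0.35, adjusted p = 0.027) lost its call when any single replicate other than 96 h replicate 4 and 24 h replicate 1 was left out (6 of the 8), at adjusted p-values from 0.052 to 0.084, as well as with 1 added (0.068) and with only the first 24 h array of replicate 1 (0.072). The 24 h mean of AT3G47480 was 14.9, below 27.8, so the size of its change depends on the added value as well. A second probe set of AT3G60420 stayed near zero, at 3.13 at 96 h and 2.77 at 24 h.

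Enzymes and carriers named here lie outside the lists and were picked from the genes that passed, so nothing is said of a pathway as a whole. PPDK, which makes phosphoenolpyruvate from pyruvate, had 108, 102, 91.6 and 108 at 96 h, against 40.1, 35.7, 16.7 and 26.8 at 24 h (2.9-fold, log2 change 1.53 ± 0.23, adjusted p = 2e-04). PPDK is among the 20 largest rises, which were kept for having no overlap. Its log2 change ran from 0.94 with an added value of 50 to 1.81 with 1. SWEET11, which carries sucrose out of phloem parenchyma cells, had 241, 233, 255 and 204 at 96 h, against 150, 133, 102 and 105 at 24 h (1.85-fold, adjusted p = 0.00078). ATSPS4F, a sucrose-phosphate synthase, showed 130, 97.9, 162 and 97.4 at 96 h, against 84.2, 57.1, 45.1 and 50 at 24 h (1.91-fold, adjusted p = 0.0063), with a wide spread in both groups. SWEET2, a vacuolar sugar carrier, rose 1.45-fold to 179 ± 19.6 at 96 h, against 120 ± 9.74 at 24 h (adjusted p = 0.0014). SWEET16, also a vacuolar sugar carrier, moved the other way, with 71.8, 62.6, 46 and 48.5 at 96 h, against 125, 128, 90.9 and 89.1 at 24 h. Its log2 change was -0.82 ± 0.14 (adjusted p = 0.00083), and it is among the 20 largest falls, which were also kept for having no overlap. NDB2, an external NAD(P)H dehydrogenase of mitochondria, rose 2.15-fold to 143 ± 24.9 at 96 h, against 61.1 ± 11.3 at 24 h (adjusted p = 1e-04). ALDH2C4, an aldehyde dehydrogenase that makes ferulic and sinapic acid, rose 1.4-fold to 534 ± 30.2 at 96 h, against 380 ± 25.2 at 24 h (adjusted p = 0.00062).

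**Figure D2:**
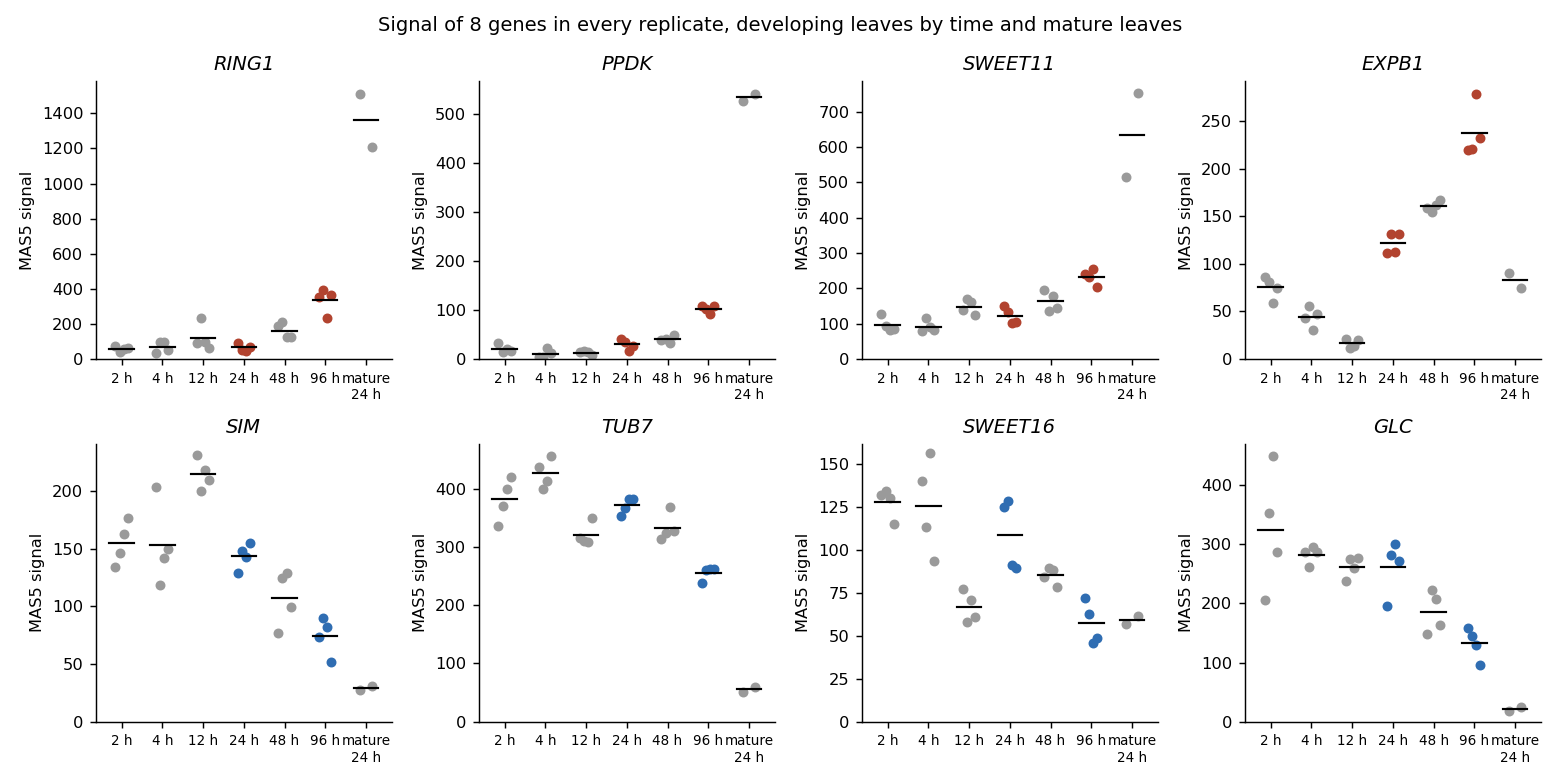
MAS5 signal (y axis, linear from 0) of 8 genes in developing leaves at 2, 4, 12, 24, 48 and 96 h and in mature leaves at 24 h. Points are replicates, horizontal bars group means, and colour marks 24 h and 96 h. RING1, PPDK and SWEET11 are higher at 96 h and higher again in mature leaves, EXPB1 peaks at 96 h, and SIM, TUB7 and GLC are lower at 96 h and lowest in mature leaves.

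The genes in the plot by time were picked after their values were seen. PPDK averaged 20.9, 10.8 and 12.9 in the groups of 2, 4 and 12 h, then 29.8, 40.5 and 102 in those of 24, 48 and 96 h, and 533 in mature leaves. EXPB1 averaged 75.3, 44.4 and 16.8 in the first 3 groups and 122, 161 and 238 in the next 3, but 82.8 in mature leaves. Its 12 h mean was thus below the 24 h mean by a larger factor than the 96 h mean was above it. SWEET16 was likewise low at 12 h (66.7), close to its mean of 57.2 at 96 h, with 108 at 24 h. Levels that differ within the first day were also seen for genes of the clock, which follow the time of day. CCL averaged 770, 1810 and 1960 in the groups of 2, 4 and 12 h, but 128 ± 27.3 at 96 h and 137 ± 25.4 at 24 h, and GI, an evening gene of the clock, had 53.5 ± 8.02 at 96 h and 50.7 ± 10.5 at 24 h. Neither passed the test, with log2 changes of -0.10 ± 0.15 and 0.07 ± 0.12.

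Enzymes that attach sugars to small molecules, the UDP-glycosyltransferases, had 47 members with a named probe set, of which 3 rose and none fell in limma's test (7 had an unadjusted p under 0.05). Over all 22746 probe sets 2.81% rose and 2.11% fell, and 3832 had an unadjusted p under 0.05. The median log2 change of the 47 was 0.04. UGT87A2, known for its part in flowering time, had the smallest adjusted p. It had 162, 152, 159 and 167 at 96 h, against 74.5, 61.7, 64.9 and 62.9 at 24 h (2.24-fold, log2 change 1.16 ± 0.12, adjusted p = 3.9e-06), with little spread in either group and the groups far apart. UGT76B1, which glucosylates isoleucic and salicylic acid, had 32.6, 43.6, 1.75 and 36.5 at 96 h, against 8.3, 0.668, 1.28 and 0.511 at 24 h (adjusted p = 0.025). One 96 h replicate was as low as those at 24 h. This call ended with an added value of 1 (0.065), when only these groups were fitted (0.11), and without any of 96 h replicates 1, 2 and 4 (0.08, 0.093 and 0.084) or 24 h replicates 2, 3 and 4 (0.066, 0.071 and 0.07), and without replicate 1 of every group (0.064). UGT73D1 rose near background, with 11.3 ± 7.69 at 96 h and 1.46 ± 0.19 at 24 h, and lost its call when only these groups were fitted (0.069). The list of cytochrome P450 genes, oxygenases of many plant products, was drawn by gene symbol. It held 24 genes, most of them of the CYP71B group. Whether the member with the bare symbol CYP71 is a P450 was not checked. Of the 24, 2 rose and none fell (7 had an unadjusted p under 0.05), with a median of 0.16. CYP71B23 had 46.6, 65.3, 50.1 and 72.2 at 96 h, against 17.5, 15.7, 9.66 and 10.6 at 24 h (1.55 ± 0.25, adjusted p = 0.00035), a change of 0.77 with an added value of 50 and 2.07 with 1. CYP71B36 had 17.6 ± 3.35 at 96 h and 5.02 ± 4.11 at 24 h (adjusted p = 0.013), a call that depended on 24 h replicate 4 (0.057 with it left out). In the list of oxidative stress and detoxification, 1 of 14 genes passed (median 0.19), the glutathione transferase GSTU18, with 253 ± 23.3 at 96 h and 193 ± 48.3 at 24 h (adjusted p = 0.049). That call ended when any single replicate other than 24 h replicate 1 was left out (0.052 to 0.2), and in 6 of the other alternatives (0.06 to 0.19).

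Cell wall genes changed in both directions. The list of wall expansion held 26 genes, 9 of them with both group means above 27.8. Of the 26, 3 rose and 1 fell, beside 2.81% rising and 2.11% falling over all probe sets, and the median log2 change was 0.03. Expansins, which loosen walls, were among the rises. EXPB1 had 220, 221, 279 and 232 at 96 h, against 111, 131, 113 and 132 at 24 h (1.88-fold, log2 change 0.91 ± 0.14, adjusted p = 0.00019). EXPA8 had 139, 158, 155 and 159 at 96 h, against 98.4, 61.9, 76.2 and 70.3 at 24 h (1.9-fold, adjusted p = 0.01). For both, every 96 h value lay above every 24 h value. The remaining pair of calls came from xyloglucan endotransglucosylase/hydrolases, which cut and rejoin the xyloglucan that tethers cellulose, and went opposite ways. XTH32 had 885 ± 82.5 at 96 h and 616 ± 56.7 at 24 h (1.43-fold higher, adjusted p = 0.001). XTH16 had 266 ± 26.5 at 96 h and 366 ± 33.4 at 24 h (log2 change -0.45 ± 0.10, adjusted p = 0.0065). Some wall genes outside the list were picked from the rises that passed. GH9C2, an endoglucanase, had 507, 567, 642 and 599 at 96 h, against 398, 387, 372 and 417 at 24 h (1.46-fold, adjusted p = 0.00041). CSLC04, which builds the xyloglucan backbone, had 353 ± 33.2 at 96 h and 249 ± 13.1 at 24 h (1.4-fold, adjusted p = 0.0055), and the pectin methylesterase gene PMEPCRF 450 ± 79.3 at 96 h and 291 ± 27 at 24 h (1.52-fold, adjusted p = 0.0038).

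The 20 largest falls with a single gene ran from -2.89 to -0.77. The largest was AT4G17470, with 29.5, 8.89, 5.32 and 17.3 at 96 h, against 448, 204, 71.1 and 108 at 24 h (log2 change -2.89 ± 0.50, adjusted p = 0.00085). Its 96 h mean of 15.2 lies below 27.8, so the size of its change depends on the added value. Over the alternatives its log2 change ran from -3.59 to -1.78. Its 24 h values were very uneven. The rule that named these 20 kept only genes without overlap between the groups. AT2G33850 was the brightest, with 835, 612, 737 and 598 at 96 h, against 1580, 1490, 1210 and 1290 at 24 h (-0.996 ± 0.13, adjusted p = 4.5e-05), and was at 7.3 ± 5.3 in mature leaves. GLC, of the BAHD acyltransferase family, had 158, 145, 130 and 96.5 at 96 h, against 196, 281, 300 and 271 at 24 h (-0.94 ± 0.18, adjusted p = 0.0018). Its second probe set fell too, with 41.9 at 96 h and 82.2 at 24 h (-0.80, adjusted p = 0.0098). HMT-1, a homocysteine methyltransferase that makes methionine, had 94.9, 90.9, 70.2 and 78.8 at 96 h, against 139, 178, 152 and 165 at 24 h (-0.85 ± 0.13, adjusted p = 0.00018). Below these 20, LCR69, which encodes a defensin-like peptide, had 636 ± 37.3 at 96 h and 1070 ± 151 at 24 h (-0.74 ± 0.12, adjusted p = 0.00034). The subtilisin-like protease gene SBT1.3 had 426 ± 35.7 at 96 h and 578 ± 32.9 at 24 h (-0.43 ± 0.09, adjusted p = 0.0059). PRH75, a DEAD-box helicase, had 456 ± 39.6 at 96 h and 666 ± 40.5 at 24 h (-0.54 ± 0.11, adjusted p = 0.0026). MAC3B, part of a complex linked to the spliceosome, had 516 ± 32.2 at 96 h and 691 ± 44.3 at 24 h (-0.41 ± 0.08, adjusted p = 0.0031). MAP1C, a methionine aminopeptidase of organelles, had 178 ± 18.8 at 96 h and 279 ± 47.7 at 24 h (-0.60 ± 0.12, adjusted p = 0.0021).

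The list of cell division and DNA replication had 4 of its 32 members with a named probe set, all with negative log2 changes (median -0.34). Over all probe sets 2.11% passed as lower at 96 h, and in this list 1 member did. That member does not drive division. It was SIM (SIAMESE), an inhibitor of cyclin-dependent kinases known from trichomes for switching cells from division to repeated DNA copying. SIM is also among the largest falls, which were kept for having no overlap. SIM had 73.9, 89.8, 82.3 and 51.8 at 96 h, against 129, 148, 143 and 155 at 24 h (log2 change -0.88 ± 0.15, adjusted p = 0.00079). The Aurora kinase AUR1, which acts in mitosis, had 108, 107, 85.6 and 121 at 96 h, against 130, 124, 163 and 126 at 24 h (-0.34 ± 0.12, adjusted p = 0.092). PRL (PROLIFERA), a subunit of the replicative helicase, had 199 ± 17.8 at 96 h and 238 ± 24.5 at 24 h (-0.24 ± 0.13, adjusted p = 0.39). Of 6 histone genes, 2 fell and none rose, beside 2.11% falling over all probe sets, with a median of -0.30. HTB2, a histone H2B gene, had 131, 118, 115 and 134 at 96 h, against 245, 207, 182 and 166 at 24 h (-0.63 ± 0.16, adjusted p = 0.016), and HTB1, also H2B, 207 ± 22.5 at 96 h and 316 ± 30.1 at 24 h (-0.59 ± 0.17, adjusted p = 0.045). HTB2 did not pass with 96 h replicate 3 left out (0.053), nor with 24 h replicate 1 left out (0.055), and HTB1 did not pass when any single replicate other than 24 h replicate 1 was left out (0.051 to 0.14), with median centring (0.055), without the trend (0.058) or with only the first 24 h array of replicate 1 (0.058). Histone H2B genes are close in sequence, and whether their probe sets share signal was not tested.

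Further genes lie outside these lists and were picked from those that passed, so they are no test of mitosis as a process. 3xHMG-box1, a protein of mitotic chromosomes, had 57.8, 38.3, 43.7 and 37.1 at 96 h, against 72, 81.7, 104 and 98.2 at 24 h (-0.87 ± 0.17, adjusted p = 0.0019). This gene is also among the largest falls, which were kept for having no overlap. UBC20, a ubiquitin-conjugating enzyme of the type that acts on mitotic cyclins, had 101, 115, 90.1 and 118 at 96 h, against 152, 135, 181 and 150 at 24 h (-0.50 ± 0.11, adjusted p = 0.0093). This call was lost without 24 h replicate 3 (0.05). The tubulin gene TUB7 had 239, 260, 262 and 262 at 96 h, against 354, 367, 383 and 382 at 24 h (-0.52 ± 0.07, adjusted p = 8.5e-05). Its replicates spread little and the groups stood far apart. Another tubulin gene, TUB1, went the other way, with 89.7, 77.7, 71.3 and 74.6 at 96 h, against 58.7, 45.3, 44.2 and 48.2 at 24 h (0.58 ± 0.16, adjusted p = 0.032). The call on TUB1 ended when replicate 1 (0.1), 2 (0.064) or 4 (0.056) of 96 h, or replicate 2 (0.083), 3 (0.1) or 4 (0.07) of 24 h, was left out, and when replicate 1 of every group was (0.056). BUBR1, of the spindle checkpoint, had 20.6, 20, 17.7 and 19 at 96 h, against 33.1, 33.1, 38.4 and 27 at 24 h (adjusted p = 0.021), and did not pass when replicate 3 was left out of the 96 h group (0.062) or of the 24 h group (0.086), or when only these groups were fitted (0.051). In RNA from whole leaves, fewer cells of a type and less RNA per cell cannot be told apart.

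**Figure D3:**
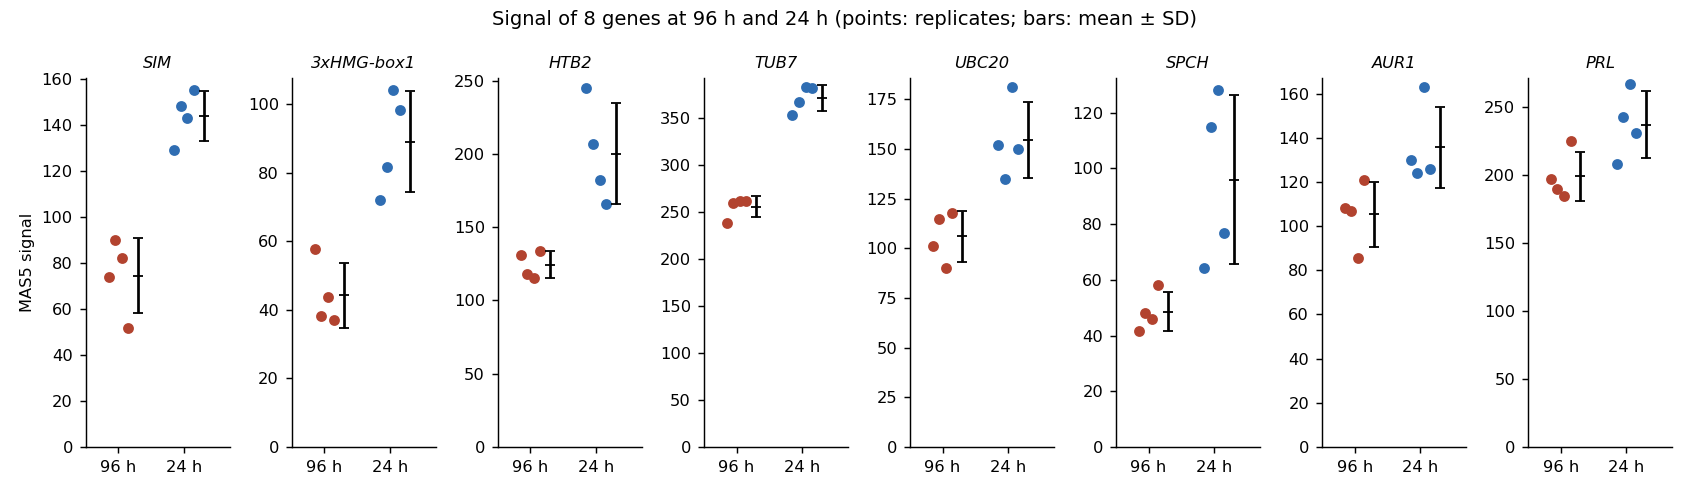
MAS5 signal (y axes, linear from 0, 1 scale per gene) of 8 genes in developing leaves at 96 h (red, left) and 24 h (blue, right). Points are the 4 replicates of a group and bars the mean ± SD. SIM, 3xHMG-box1, HTB2, TUB7, UBC20 and SPCH have groups that do not overlap and passed the test. Of these, SIM, 3xHMG-box1 and SPCH are among the largest falls, which were kept for passing without overlap. TUB7 and UBC20 were picked from the genes that passed. AUR1 and PRL did not pass, and the groups of PRL overlap.

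The stomatal lineage list had 4 of its 18 genes with a named probe set, and a median of -0.22. SPCH (SPEECHLESS), the transcription factor that starts the lineage, was the 1 that passed. It is also among the largest falls, which were kept for having no overlap. It had 41.7, 48, 46 and 58.2 at 96 h, against 64.2, 115, 128 and 76.9 at 24 h (log2 change -0.82 ± 0.20, adjusted p = 0.014), with 83.8 ± 18.3 at 48 h and 2.71 ± 0.59 in mature leaves. The 24 h values were widely spread, and leaving out replicate 1 of 96 h (0.051), or replicate 2 (0.057) or 3 (0.076) of 24 h, ended the call. STOMAGEN, a peptide from the mesophyll that promotes stomata, had 282, 262, 291 and 230 at 96 h, against 347, 331, 295 and 266 at 24 h (-0.21 ± 0.10, adjusted p = 0.31), and these groups overlapped. MUTE, which acts after SPCH, was near background in both groups, with 6.17 ± 3.15 at 96 h and 9.91 ± 8.18 at 24 h. FMA, which acts last in the lineage, had 53.7 ± 7.07 at 96 h and 56.7 ± 12.2 at 24 h. ATMYC1, a bHLH factor of epidermal patterning, lies outside the list and fell to 73.7 ± 4.78 at 96 h, against 110 ± 9.22 at 24 h (-0.51 ± 0.13, adjusted p = 0.015).

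Of 21 starch genes listed, 4 had a named probe set, so most of the list was not measured here. All 4 had an unadjusted p under 0.05, beside 3832 of all 22746 probe sets, and 3 passed, beside 4.92%. SBE2.2, a starch branching enzyme, had 276, 213, 243 and 267 at 96 h, against 112, 187, 183 and 189 at 24 h (1.48-fold, adjusted p = 0.036). DPE1, a plastid enzyme that rearranges maltotriose during starch breakdown, had 44.8, 29.6, 43.7 and 40.6 at 96 h, against 54, 61.7, 67.3 and 82.8 at 24 h (log2 change -0.62 ± 0.12, adjusted p = 0.003). PWD, which phosphorylates starch granules so that they can be degraded, had 120, 131, 126 and 128 at 96 h, against 143, 155, 169 and 186 at 24 h (-0.34 ± 0.09, adjusted p = 0.026). Groups did not overlap for any of these 3. A second, dimmer probe set under the symbol PWD gave 21.2 at 96 h and 17.6 at 24 h (0.18, adjusted p = 0.68). Probe sets were joined by symbol and not by locus, so it may belong to another gene of that symbol. SBE2.2 did not pass with replicate 1 (0.11), 3 (0.069) or 4 (0.094) of 96 h left out, nor with replicate 1 (0.12) or 3 (0.05) of 24 h left out. The same was true of PWD for replicates 1 (0.077), 3 (0.059) and 4 (0.051) of 96 h and 3 (0.081) and 4 (0.11) of 24 h. With only these groups fitted, none of the 3 passed (0.088 for SBE2.2, 0.071 for PWD and 0.058 for DPE1), and SBE2.2 did not pass with median centring (0.069). Within the first day DPE1 averaged 123, 218 and 256 in the groups of 2, 4 and 12 h, far above either group here.

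Genes of photosynthesis were among the brightest, and 1 in the lists passed. Of 3 light-harvesting genes, LHCB4.3, a minor antenna protein of photosystem II, rose to 563 ± 102 at 96 h, against 395 ± 49.6 at 24 h (1.41-fold, adjusted p = 0.026). Its call ended when replicate 1 (0.12) or 3 (0.074) of 96 h, or replicate 3 (0.099) or 4 (0.088) of 24 h, was left out, when only these groups were fitted (0.077) and with only the second 24 h array of replicate 1 (0.055). The brighter members of the same family, LHCB4.1 (3890 ± 340 at 96 h and 3950 ± 673 at 24 h) and LHCB4.2 (2720 ± 247 at 96 h and 2950 ± 606 at 24 h), did not pass. NdhN, of the chloroplast NADH dehydrogenase-like complex, lies outside the lists and rose 1.35-fold to 487 ± 35.6 at 96 h, against 360 ± 42.8 at 24 h (adjusted p = 0.012), a call lost without 24 h replicate 3 (0.059). None of 4 photosystem subunits (median -0.02), 3 Calvin cycle genes (0.12) or 3 photorespiration genes (0.12) passed. RCA, the activase of Rubisco, had 3610 ± 438 at 96 h and 4020 ± 685 at 24 h. Of 69 plastid-encoded genes none passed, with a median of -0.10, and psbE had the smallest adjusted p (915 ± 79.3 at 96 h and 609 ± 94.4 at 24 h, adjusted p = 0.086).

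**Figure D4:**
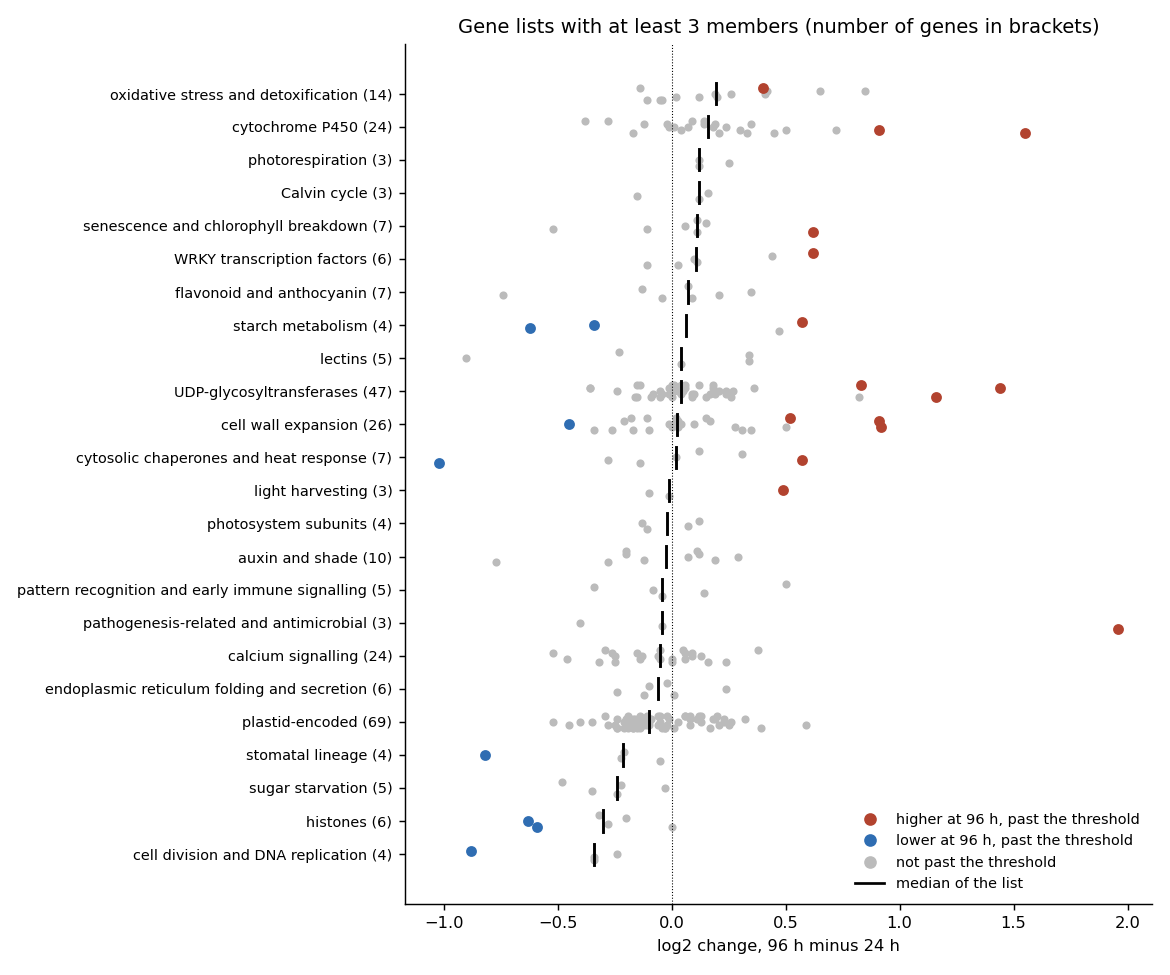
Log2 change at 96 h against 24 h (x axis) of each gene in the 24 lists with at least 3 genes that have a named probe set, 1 row per list. Red points passed the threshold higher at 96 h, blue points passed it lower, grey points did not pass, and black bars are list medians. The lists of cell division, histones, sugar starvation and the stomatal lineage have the lowest medians, and no list median lies outside -0.34 to 0.19.

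The plot of the lists holds 24 of the 35 lists drawn up. Over all lists 301 genes had a named probe set, of which 14 rose and 8 fell, beside 2.81% rising and 2.11% falling over all probe sets. Among lists of defence, the pathogenesis-related list had 3 genes and 1 rise, that of CHI, with a median of -0.04. The WRKY transcription factors had 6 genes (median 0.10) and the senescence list 7 (median 0.11), each with 1 rise, which was WRKY53 in both. WRKY53, a regulator of leaf senescence, had 31.2, 39.1, 38.9 and 51.2 at 96 h, against 28.2, 19.8, 20.7 and 20.8 at 24 h (log2 change 0.62 ± 0.16, adjusted p = 0.018). Its 24 h mean of 22.4 lies below 27.8, so the size of its change depends on the added value. Over the alternatives its log2 change ran from 0.31 to 0.81. The lowest 96 h value was close to the highest at 24 h, and the call ended when replicate 4 of 96 h (0.078), or replicate 2 (0.054), 3 (0.058) or 4 (0.052) of 24 h, was left out, or when only these groups were fitted (0.061). Of 5 genes of pattern recognition and early immune signalling none passed (median -0.04). The largest change there was that of PUB24, a U-box ubiquitin ligase, with 47.5 ± 2.94 at 96 h and 31.1 ± 8.45 at 24 h (adjusted p = 0.11).

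The 7 genes of cytosolic chaperones and heat response had 1 rise and 1 fall (median 0.02). Hsp70-2, a cytosolic chaperone, had 441, 392, 345 and 367 at 96 h, against 272, 259, 236 and 253 at 24 h (1.49-fold, log2 change 0.57 ± 0.10, adjusted p = 0.001). AT1G54050 had 217, 227, 191 and 171 at 96 h, against 552, 445, 431 and 286 at 24 h (-1.02 ± 0.15, adjusted p = 2e-04). The groups of Hsp70-2 did not overlap. AT1G54050 is among the largest falls named by the rule in the methods, which were kept for having no overlap. The 6 genes of protein folding in the endoplasmic reticulum (median -0.06), 10 of auxin and shade (-0.02), 7 of flavonoid and anthocyanin synthesis (0.07), 24 of calcium signalling (-0.05) and 5 lectins (0.04) had no call, and neither had 5 of sugar starvation (-0.24). MCCB, a carboxylase of leucine breakdown in the sugar starvation list, had 100 ± 20.8 at 96 h and 144 ± 30.7 at 24 h (-0.48 ± 0.17, adjusted p = 0.11). The 11 lists of 3 or more genes without a call in limma's test held 141 genes, of which 15 had an unadjusted p under 0.05. The smallest adjusted p among them was 0.055, that of IQD31 in the calcium list. The 8 lists with 1 or 2 genes (salicylic acid, jasmonate, ethylene, leaf growth regulators, phenylpropanoid entry, clock, glucosinolates and nitrogen assimilation) had no call among 11 genes, 1 of which had an unadjusted p under 0.05. Lists of cytosolic ribosome, receptor-like kinase and resistance protein genes had no member with a named probe set.

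Mature leaves at 24 h were set against developing leaves at 48 h, a comparison that takes its means from other arrays than those at 96 h and 24 h and was added after seeing the data. It asks how the genes called between 96 h and 24 h stand in older leaves. Of the 640 rises, 560 (87.5%) were higher in mature leaves than in developing leaves at 48 h, where 46.8% of all probe sets were. Of the 479 falls, 426 (88.9%) were lower in mature leaves, where 53.2% of all probe sets were. The median log2 difference, mature minus 48 h, was 1.09 for the rises, -1.24 for the falls and -0.03 for all. These rest on 2 mature replicates, and mature leaves differ from the developing ones in age, position and time of treatment at once. The clock gene CCL had 2690 ± 165 in mature leaves and 115 ± 30.4 in developing leaves at 48 h. GI had 78.1 ± 11.4 in mature leaves and 46.5 ± 4.45 at 48 h. Whether the mature leaves also differ in time of day was not tested.

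**Figure D5:**
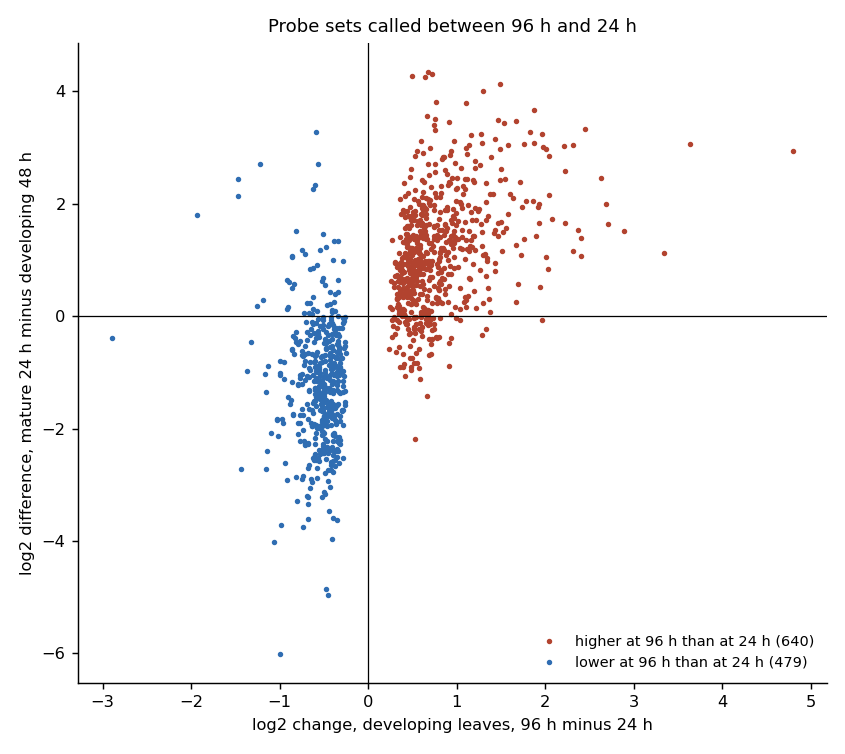
Each point is 1 of the 1119 probe sets called between 96 h and 24 h in developing leaves. The x axis is the log2 change, 96 h minus 24 h, and the y axis the log2 difference between mature leaves at 24 h and developing leaves at 48 h, from other arrays. Most of the 640 rises (red) lie above 0 on the y axis and most of the 479 falls (blue) below it.

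A smaller group went against mature leaves. Of the rises, 28 probe sets were called lower in mature leaves than at 48 h, beside 23.4% of all probe sets, and of the falls 31 were called higher, beside 20.3%. All 7 groups share 1 estimate of the spread of each probe set, so a small spread makes a call more likely in both comparisons, and these percentages are not what would be found without a link. The wall genes EXPB1, XTH32 and GH9C2 were among those rises. EXPB1 had 82.8 ± 11.1 in mature leaves and 161 ± 5.38 in developing leaves at 48 h (log2 difference -0.88, adjusted p = 8.2e-05), below its level at either 96 h or 24 h. XTH32 had 410 ± 33.8 in mature leaves and 738 ± 88 at 48 h (-0.83, adjusted p = 9.3e-07), and GH9C2 294 ± 54.9 in mature leaves and 468 ± 29.4 at 48 h (-0.66, adjusted p = 1.2e-05). EXPA8, in contrast, had 765 ± 81.5 in mature leaves and 96.3 ± 12.7 at 48 h. Hsp70-2 and LHCB4.3 also rose at 96 h and were lower in mature leaves, at 168 ± 12.2 and 237 ± 5.78. Among the falls, ALDH6B2, a dehydrogenase of valine breakdown, had 131 ± 11 at 96 h and 203 ± 36.6 at 24 h (adjusted p = 0.0079), but 320 ± 73.3 in mature leaves, against 164 ± 23 at 48 h. Its call did not hold with only the second of the 24 h arrays of replicate 1 (0.11) or with both kept apart (0.053).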

How the data were processed

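Total RNA of Col-0 leaves was hybridised as biotin-labelled target to Affymetrix ATH1 arrays. The values the authors deposited are a linear MAS5 intensity per probe set, per the submitters' processing notes, which give no version. Each of the 28 arrays was found to have a 2% trimmed mean of 100. Detection calls were not used. Precision is limited by how many arrays each group has.

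The table holds 22810 probe sets, of which 64 controls were left out. The gene table used here gives a single gene for 13513, several for 503 and none for 8730, and 13436 were matched by gene identifier to the annotation of TAIR10.1, from which symbols were taken. No sequence or coordinate is given.

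Samples were grouped by the labels. The 24 h arrays both titled replicate 1 were averaged on the log2 scale. One 4 h array whose treatment note differs from the others was assigned to no group. The 7 groups (26 replicates) were fitted together on log2(signal + 10) with limma 3.58.1 in R 4.3.3 (lmFit, eBayes with trend, 19 residual degrees of freedom), with two-sided tests and Benjamini-Hochberg adjustment over 22746 probe sets. These steps were tested on simulated data.

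By the naming rule, probe sets past the threshold were kept if they had a single gene, replicate values that did not overlap and, in the brighter group, a mean above 46.3 (the median over probe sets), and the 20 that rose most and 20 that fell most were named. Up to 4 members of each gene list with the smallest adjusted p were added. A gene with several probe sets is shown by its brightest. Other genes with a symbol are named because they passed the threshold, and a few that did not pass, chosen after their values were seen, stand beside them. The leaves, the lists and their members were chosen with earlier results of these data known. Of 502 genes listed by locus, 85 had a named probe set, and other lists were drawn by gene family.

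Alternatives were an added value of 1 or 50, filters at the 40th and 60th percentile of mean signal, quantile normalization or median centring, array quality weights, a fit of only the compared groups, a replicate block, no trend in eBayes, the doubled 24 h arrays used singly or kept apart, and each replicate left out in turn. Leaving out replicate 1 of every group was added after seeing the data. Deviations of same-numbered 96 h and 24 h replicates from their group means correlated at 0.03, 0.027, -0.036 and 0.097, so the numbers were not taken to pair samples.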

Additional observations from a re-analysis of the deposited data

Results flagged for a closer look

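In 11 of 238 groups of 4 replicates of the named genes (4.62%), the highest or lowest value stood off from the other 3 by a larger share of the group's range than Dixon's 95% critical value. Chance gives about 1 in 20, so these are given as values only. At 96 h, AT5G12940 had 87.4 in replicate 2, where the others had 67 to 67.6. SAL2 had 44.5 in 96 h replicate 3, below 64.6 to 66 in the others, and 7.15 in 24 h replicate 3, below 12.3 to 12.5. XERICO, a RING-H2 protein gene linked to abscisic acid, had 134 in 96 h replicate 4, above 112 to 115. TUB7 had 239 in 96 h replicate 1, below 260 to 262. At 24 h, 4 of the 11 were in replicate 1: UGT76B1 with 8.3, above 0.511 to 1.28, PRA1.F1 with 62.8, above 30.3 to 33.1, WRKY53 with 28.2, above 19.8 to 20.8, and SBE2.2 with 112, below 183 to 189. AT2G18690 had 27.8 in 24 h replicate 2, above 18.1 to 19.4, and SBT1.3 had 627 in 24 h replicate 4, above 558 to 564.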

How the results depend on the processing

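Over the alternatives, the probe sets called between 96 h and 24 h numbered from 700 without 24 h replicate 3 to 1668 with array quality weights, against 1119 as reported. The share of rises among them was 47.1% with the filter at the 60th percentile, where 1012 passed, against 57.2% as reported, and 64.1% with only the compared groups. The replicate block gave 1327 calls, 1092 of them shared with the 1119, and 3 of 8 replicates correlated best with their own number. Of 114 named genes that passed, 57 kept the call in every alternative that tested them and 57 lost it in at least 1, and none changed direction. Falls numbered 751 with array weights and 290 with only the compared groups. Rises of at least 2-fold numbered 52 with 50 added, 96 and 49 with the filters at the 40th and 60th percentile, and falls of at least 2-fold 55 with 1 added, 7 with 50 added and 41 without replicate 1 of any group. The filters test fewer probe sets, and a larger added value shrinks the changes of dim ones. The cause was not tested for the other shifts. Leaving out 1 replicate at a time gave 700 to 1281 calls, 248 to 554 falls, 9 to 15 list members higher and 5 to 8 lower.

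Medians of the lists moved by more than their spread between replicates as follows. With 1 added, they were 0.10 for cell wall expansion, 0.36 for oxidative stress and 0.24 for cytochrome P450, and with 50 added 0.08 for oxidative stress and 0.06 for cytochrome P450. With the filter at the 40th percentile they were 0.27 for WRKY factors, 0.22 for cell wall expansion, -0.12 for auxin and shade, 0.26 for oxidative stress, 0.33 for cytochrome P450, -0.23 for lectins and -0.13 for calcium signalling. With the filter at the 60th percentile they were -0.20 for senescence, -0.44 for histones, 0.35 for cell wall expansion, 0.07 for auxin and shade, -0.35 for sugar starvation, -0.34 for starch, 0.26 for oxidative stress and -0.13 for calcium signalling. Quantile normalization gave 0.24 for photorespiration, 0.14 for oxidative stress and 0.12 for cytochrome P450, both 24 h arrays of replicate 1 kept apart gave -0.33 for sugar starvation, and the first of them alone 0.10 for cytochrome P450. Without replicate 1 of any group the medians were 0.21 for WRKY factors, 0.02 for senescence, 0.20 for photosystem subunits, -0.33 for sugar starvation, -0.02 for starch and 0.08 for plastid-encoded genes. Leaving out single replicates gave -0.02 to 0.18 for senescence, -0.04 to 0.13 for lectins, 0.14 to 0.25 for oxidative stress, 0.11 to 0.21 for cytochrome P450 and 0.09 to 0.26 for photorespiration. The clock genes had no call in any alternative. Leaving out single replicates, the log2 change of CCL ran from -0.22 to 0.01 and that of GI from 0.00 to 0.18, so the sign of neither is settled. The share of rises higher in mature leaves than at 48 h was 85.1% to 90.2%, and that of falls lower there 83.9% to 91.3%.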

Other observations

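Other genes that passed the test lie outside the gene lists. TET3, a tetraspanin of the plasma membrane, had 78.4, 68.9, 82.8 and 74.9 at 96 h, against 36, 27.5, 36.9 and 38.7 at 24 h (1.93-fold, adjusted p = 0.0011), and 300 ± 9.77 in mature leaves. DRT100, a leucine-rich repeat protein gene, had 242 ± 21.4 at 96 h and 126 ± 27.5 at 24 h (1.88-fold, adjusted p = 0.0016), but 141 ± 11.3 in mature leaves. Lower at 96 h were scpl25, a serine carboxypeptidase-like gene, with 226 ± 3.64 at 96 h and 301 ± 23.8 at 24 h (log2 change -0.39 ± 0.09, adjusted p = 0.012), and KICP-02, with 63.1 ± 5.77 at 96 h and 95.8 ± 7.76 at 24 h (-0.53 ± 0.11, adjusted p = 0.0026).

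In mature leaves the tubulin genes TUB1 and TUB7 were both lower than in developing leaves at 48 h, TUB1 at 20.8 ± 2.57 against 58 ± 15.7 and TUB7 at 55.9 ± 5.77 against 333 ± 24.4. PORB, which makes chlorophyllide in the light, had 462, 634, 597 and 624 at 96 h, against 733, 870, 797 and 938 at 24 h (-0.52 ± 0.14, adjusted p = 0.027). It did not pass with replicate 1 (0.12) or 3 (0.051) of 96 h left out, nor with replicate 2 (0.071), 3 (0.054) or 4 (0.094) of 24 h left out, nor without replicate 1 of every group (0.051) or with only the second 24 h array of replicate 1 (0.097), and stood at 1030 ± 113 in mature leaves.

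Of the probe sets with no gene in the table used here, the largest falls were in 245928_s_at, with 103 ± 58.2 at 96 h and 455 ± 327 at 24 h (log2 change -1.94 ± 0.50, adjusted p = 0.022), and in 245668_at, with 1.88 ± 0.40 at 96 h and 26.5 ± 20 at 24 h (-1.48 ± 0.25, adjusted p = 6e-04). The 24 h replicates of both were very uneven, and both were brighter in mature leaves, at 601 and 46.9, than in developing leaves at 48 h, at 157 and 2.63. For 245668_at both means lie below 27.8, so the size of its change depends on the added value.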
